A study of Homo sapiens with 8 samples.

Results

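In 2 human squamous carcinoma lines treated with an inhibitor of the NEDD8 pathway, transcripts of 10 genes linked to the kinase ERK were followed. They encode 5 dual-specificity phosphatases (DUSP1, DUSP4, DUSP5, DUSP6 and DUSP7), the Sprouty proteins SPRY2 and SPRY4, the related SPRED1 and SPRED2, and PHLDA1. They were picked by name as feedback genes of the MAP kinase pathway and make up 10 of the 61533 gene identifiers in the count tables. All 10 were found under their symbols, and all 10 passed the filter on low counts. DUSP4, DUSP5, DUSP6, DUSP7, SPRY4, SPRED1 and SPRED2 were higher under the inhibitor in both lines. DUSP1 was lower in CAL27 and higher in A431. SPRY2 and PHLDA1 were higher in A431 and did not pass the test in CAL27.

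Growth factor receptors switch on RAS, which drives the kinase chain of RAF, MEK and ERK. Active ERK enters the nucleus and induces, among other genes, its own inhibitors. Dual-specificity phosphatases strip the phosphates from the activation loop of MAP kinases, while Sprouty and SPRED proteins act upstream, between the receptor, RAS and RAF. In squamous epithelia this chain runs downstream of the EGF receptor, and the RNA of its feedback genes is widely read as a sign of ERK output. ERK phosphorylation, protein levels and the activity of the phosphatases were not measured here.

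The data are 8 RNA sequencing libraries in 4 groups of 2, namely CAL27 with NEDD8i, CAL27 with DMSO, A431 with NEDD8i and A431 with DMSO, all collected after 16 h. CAL27 is an established line from a squamous cell carcinoma of the tongue, and A431 is an established line from an epidermoid carcinoma. DMSO is the solvent control. NEDD8i is the only name the labels give the inhibitor, the headers of the count tables tag the same libraries MLN, and the sources used here state no dose. Each line stands for 1 tumour. Whether replicate libraries were grown as separate cultures is not stated, and the p-values therefore cover the spread among these libraries alone, which can be technical. In bulk RNA, fewer cells of a type and less RNA per cell cannot be told apart.

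The libraries held 49037868 to 62509817 counts. Levels are given in CPM (counts scaled to the effective library size), and fold changes are NEDD8i over DMSO unless stated otherwise. The ± after a level is an SD over 2 libraries, and the ± after a log2 change is its approximate standard error. A gene is called where the edgeR quasi-likelihood test gave a Benjamini-Hochberg adjusted p under 0.05 over the 18738 genes tested. All 10 keratinocyte markers examined, KRT5, KRT14, TP63 and CDH1 among them, stood above 1 CPM in every group. Their summed level was 22196 to 22901 CPM in CAL27 with NEDD8i and 16158 to 16210 CPM in CAL27 with DMSO, and 14570 to 15175 CPM in A431 with NEDD8i and 11121 to 11258 CPM in A431 with DMSO. The sums rest mostly on abundant genes. In CAL27, 6 of the 10 markers were called higher, among them SFN (4.03-fold higher) and KRT6A (3.27-fold higher). The other 4 were called lower, among them TP63 (4.53-fold lower) and PKP1 (1.80-fold lower). In A431, 6 were called higher and 2 lower. Of all genes tested, 23.2% were higher and 26.4% lower in CAL27, and 22.5% higher and 21.1% lower in A431. The leukocyte marker PTPRC and the endothelial marker KDR had 0 counts in all 8 libraries. The 6 leukocyte markers summed to 2.57 to 2.60 CPM in CAL27 with NEDD8i and 17.9 to 19.1 CPM in CAL27 with DMSO, and to 0.875 to 1.82 CPM in A431 with NEDD8i and 6.78 to 6.81 CPM in A431 with DMSO. CD14 alone gave 1.60 and 1.70 CPM in CAL27 with NEDD8i and 16.3 and 17.8 CPM in CAL27 with DMSO, and 0.875 and 1.75 CPM in A431 with NEDD8i and 6.64 and 6.30 CPM in A431 with DMSO, so these sums show 1 gene more than a class. The 6 fibroblast markers summed to 6.45 to 10.6 CPM and 20.2 to 23.7 CPM in the same CAL27 groups, and to 17.6 to 18.5 CPM and 35.4 to 38.8 CPM in the same A431 groups. The 4 endothelial markers summed to 10.3 to 10.7 CPM and 5.95 to 6.63 CPM in CAL27, and to 5.22 to 5.56 CPM and 19.6 to 21.9 CPM in A431. Of the 4 endothelial markers CDH5 alone was called, higher in CAL27 (log2 change 0.81) and lower in A431 (log2 change -2.97). Among the fibroblast markers, COL1A1 and COL1A2 were called lower in CAL27, and COL1A1 and LUM in A431. The part of these shifts in the results was not tested.

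In CAL27, NEDD8i raised 7 of the 10 genes and lowered 1. Of all genes tested, 49.6% were called in that comparison, 23.2% higher and 26.4% lower. In A431, NEDD8i raised 10 of the 10 and lowered none of them, where 43.6% of all genes tested were called, 22.5% higher and 21.1% lower. The median log2 change of the 10 genes was 1.17 in CAL27 and 1.14 in A431, while that of all genes tested was -0.04 in CAL27 and -0.01 in A431. At least 2-fold changes that were also called numbered 6 of 10 in CAL27, with a background of 18.7%, and 5 of 10 in A431, with a background of 13.4%. Both lines raised 7 of the 10, and 2488 of the 18738 genes tested were higher in both. The lines have separate controls. These 10 genes were chosen with earlier results of the same libraries known, so the counts describe them and are no independent evidence.

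**Figure D1:**
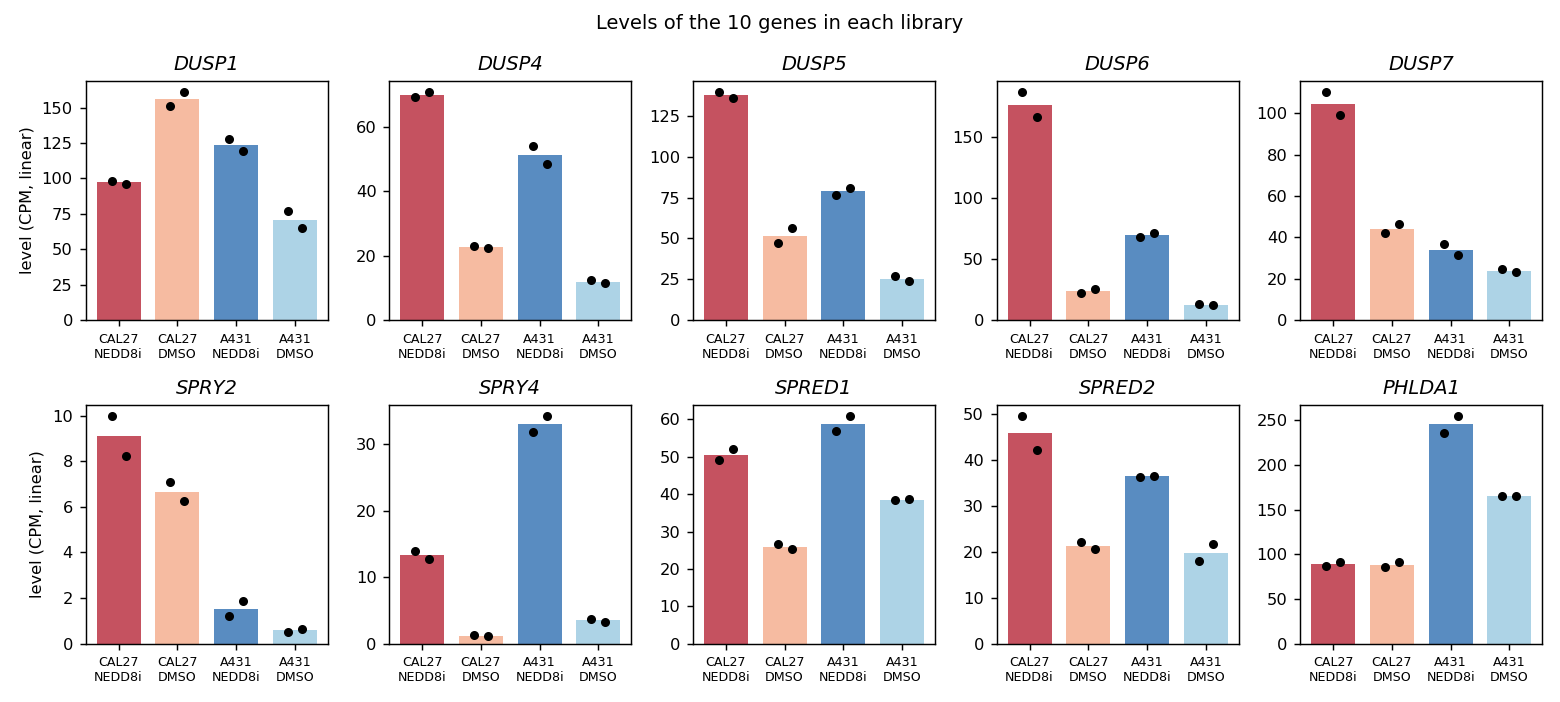
Level of each gene in CPM on a linear axis that starts at 0, with 1 panel per gene. Bars are group means and points are the 2 libraries of CAL27 with NEDD8i, CAL27 with DMSO, A431 with NEDD8i and A431 with DMSO. In DUSP6 the NEDD8i libraries of CAL27 stand at 186.4 and 165.9 CPM, above all others, while in PHLDA1 the CAL27 groups overlap and lie below both A431 groups.

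DUSP6 and DUSP7 encode the phosphatases that act on ERK mainly in the cytoplasm. DUSP6 (ENSG00000139318.8, minus strand of chromosome 12, 89347235 to 89352501 on GRCh38) stood at 186.4 and 165.9 CPM in the CAL27 libraries with NEDD8i, and at 21.7 and 25.4 CPM in those with DMSO. In A431 it had 67.8 and 70.9 CPM with NEDD8i, against 12.8 and 12.1 CPM with DMSO. Each NEDD8i library lay well above each DMSO library of its line, and the 4 groups did not overlap. The rise was 7.45-fold in CAL27 (log2 2.90 ± 0.08, edgeR adjusted p = 1.37e-14) and 5.58-fold in A431 (log2 2.48 ± 0.09, edgeR adjusted p = 3.16e-13). An antisense gene, ENSG00000274021.1, covers 27.0% of the exonic bases of DUSP6, but none of the last 500 exonic bases, near which the libraries were primed. Counting ignored strand and dropped reads over shared exons. Outside the shared bases that gene had 46 and 103 counts in the CAL27 libraries with NEDD8i and 11 and 16 with DMSO, far fewer than DUSP6 itself.

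DUSP7 (ENSG00000164086.10, minus strand of chromosome 3, 52048919 to 52056571) had 110.0 and 99.0 CPM in CAL27 with NEDD8i and 41.8 and 46.4 CPM with DMSO. In A431 the values were 36.9 and 31.2 CPM with NEDD8i and 24.4 and 23.0 CPM with DMSO. The groups did not overlap, and both DMSO libraries of CAL27 lay above both NEDD8i libraries of A431. DUSP7 rose 2.37-fold in CAL27 (log2 1.24 ± 0.09, edgeR adjusted p = 1.71e-09) and 1.43-fold in A431 (log2 0.52 ± 0.09, edgeR adjusted p = 0.000151).

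DUSP4 and DUSP5 encode inducible phosphatases of the nucleus, and DUSP5 is selective for ERK. DUSP4 (ENSG00000120875.9, minus strand of chromosome 8, 29333064 to 29350684) was at 69.4 and 70.7 CPM in CAL27 with NEDD8i, against 23.1 and 22.5 CPM with DMSO. In A431 it was at 54.0 and 48.5 CPM with NEDD8i, against 12.5 and 11.4 CPM with DMSO. The NEDD8i libraries were the 4 highest. DUSP4 rose 3.07-fold in CAL27 (log2 1.62 ± 0.08, edgeR adjusted p = 2.48e-11) and 4.28-fold in A431 (log2 2.10 ± 0.09, edgeR adjusted p = 2.99e-12).

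DUSP5 (ENSG00000138166.6, plus strand of chromosome 10, 110497907 to 110511533) had 139.4 and 135.7 CPM in CAL27 with NEDD8i and 47.1 and 56.1 CPM with DMSO. In A431 it had 76.8 and 80.7 CPM with NEDD8i and 26.7 and 23.6 CPM with DMSO. Its groups fell in the same order as those of DUSP4 and DUSP6, with CAL27 under NEDD8i on top and A431 under DMSO at the bottom. The rise was 2.66-fold in CAL27 (log2 1.41 ± 0.08, edgeR adjusted p = 1.01e-10) and 3.13-fold in A431 (log2 1.65 ± 0.08, edgeR adjusted p = 4.39e-11).

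DUSP1, the early-induced nuclear phosphatase that also acts on p38 and JNK, was the only one of the 10 called in opposite directions. DUSP1 (ENSG00000120129.6, minus strand of chromosome 5, 172768096 to 172771195) stood at 98.5 and 95.9 CPM in CAL27 with NEDD8i, below the 151.0 and 160.7 CPM with DMSO. In A431 it stood at 127.5 and 119.0 CPM with NEDD8i, above the 76.8 and 64.6 CPM with DMSO. Its groups did not overlap, and CAL27 under DMSO was the highest of the 4. In CAL27 it fell 1.60-fold (log2 -0.68 ± 0.07, edgeR adjusted p = 2.55e-07), and in A431 it rose 1.74-fold (log2 0.80 ± 0.07, edgeR adjusted p = 6.26e-08).

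Sprouty proteins block the step from receptor to RAS and RAF. SPRY4 (ENSG00000187678.10, minus strand of chromosome 5, 142310427 to 142325021) had the largest fold rise of the 10 in each line. It was at 14.0 and 12.7 CPM in CAL27 with NEDD8i and at 1.33 and 1.09 CPM with DMSO. In A431 it was at 31.8 and 34.2 CPM with NEDD8i and at 3.65 and 3.34 CPM with DMSO. Unlike DUSP4, DUSP5 and DUSP6, SPRY4 was higher in A431 than in CAL27 under the same treatment, and its groups did not overlap. The rise was 11.1-fold in CAL27 (log2 3.47 ± 0.16, edgeR adjusted p = 7.26e-12) and 9.44-fold in A431 (log2 3.24 ± 0.14, edgeR adjusted p = 6.20e-12). The CAL27 DMSO value rests on 72 counts in each library.

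SPRY2 (ENSG00000136158.12, minus strand of chromosome 13, 80335976 to 80341126) was thinly covered in A431. There it had 56 and 102 counts with NEDD8i, or 1.22 and 1.86 CPM, and 30 and 34 counts with DMSO, or 0.521 and 0.659 CPM. In CAL27 it had 9.98 and 8.25 CPM with NEDD8i and 7.10 and 6.24 CPM with DMSO. The NEDD8i libraries lay above the DMSO libraries in both lines, with a wide gap between the lines. SPRY2 rose 2.63-fold in A431 (log2 1.40 ± 0.29, edgeR adjusted p = 0.000723). In CAL27 its log2 change of 0.45 ± 0.22 did not pass (edgeR adjusted p = 0.0974), with a 95% interval from -0.01 to 0.91, and it passed with the CAL27 libraries fitted alone (log2 0.48, edgeR adjusted p = 0.0174).

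SPRED1 and SPRED2 share a C-terminal domain with the Sprouty proteins and inhibit RAS signalling, and SPRED1 brings neurofibromin to the membrane. SPRED1 (ENSG00000166068.13, plus strand of chromosome 15, 38252836 to 38357249) had 49.0 and 52.2 CPM in CAL27 with NEDD8i and 26.6 and 25.4 CPM with DMSO. In A431 it had 56.8 and 60.9 CPM with NEDD8i and 38.4 and 38.6 CPM with DMSO. Its order was A431 with NEDD8i, CAL27 with NEDD8i, A431 with DMSO and CAL27 with DMSO, which is also the order of SPRY4. SPRED1 rose 1.95-fold in CAL27 (log2 0.96 ± 0.08, edgeR adjusted p = 8.31e-09) and 1.53-fold in A431 (log2 0.61 ± 0.07, edgeR adjusted p = 2.74e-06).

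SPRED2 (ENSG00000198369.10, minus strand of chromosome 2, 65310851 to 65432599) had 49.6 and 42.2 CPM in CAL27 with NEDD8i and 22.2 and 20.6 CPM with DMSO. In A431 it had 36.4 and 36.5 CPM with NEDD8i and 17.9 and 21.7 CPM with DMSO. The DMSO libraries of the lines overlapped, and the NEDD8i libraries of both lines lay above them. SPRED2 rose 2.15-fold in CAL27 (log2 1.10 ± 0.10, edgeR adjusted p = 8.38e-08) and 1.84-fold in A431 (log2 0.88 ± 0.11, edgeR adjusted p = 2.25e-06).

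PHLDA1, a growth-factor-induced protein with a pleckstrin homology-like domain, is a member of transcript scores of MAP kinase activity. PHLDA1 (ENSG00000139289.14, minus strand of chromosome 12, 76025447 to 76031776) stood at 86.9 and 91.0 CPM in CAL27 with NEDD8i and at 85.7 and 91.3 CPM with DMSO. In A431 it stood at 236.2 and 254.5 CPM with NEDD8i and at 164.9 and 165.3 CPM with DMSO. The CAL27 groups overlapped and the A431 groups did not. The log2 change in CAL27 was 0.01 ± 0.05 (edgeR adjusted p = 0.936), with a 95% interval from -0.11 to 0.12, and PHLDA1 rose 1.49-fold in A431 (log2 0.57 ± 0.05, edgeR adjusted p = 1.19e-07). An antisense gene covers 9.35% of its exonic bases and none of the last 500, and that gene had at most 1 count in a library.

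**Figure D2:**
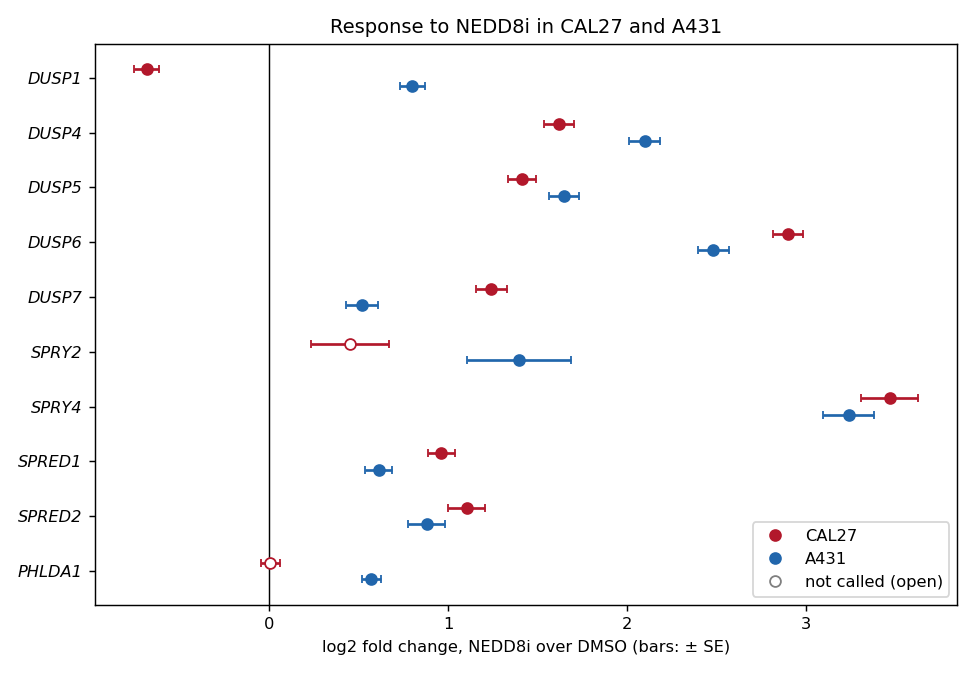
Log2 fold change of NEDD8i over DMSO on the horizontal axis for each gene, with CAL27 in red above A431 in blue, bars of ± 1 standard error, and open points where the test was not passed. SPRY4 and DUSP6 lie farthest to the right in both lines, and DUSP1 lies at -0.68 in CAL27 and 0.80 in A431.

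The response differed between the lines for 6 of the 10 genes, 3 of them higher in CAL27 relative to A431 and 3 lower, where 34% of all genes tested were called, 14.2% higher and 19.8% lower. The difference is the CAL27 log2 response minus the A431 log2 response. DUSP1 showed the widest, at -1.48 ± 0.10 (edgeR adjusted p = 4.72e-09). PHLDA1 differed by -0.56 ± 0.08 (edgeR adjusted p = 1.65e-05) and DUSP4 by -0.48 ± 0.12 (edgeR adjusted p = 0.00403). In the other direction DUSP7 differed by 0.72 ± 0.13 (edgeR adjusted p = 0.000205), DUSP6 by 0.42 ± 0.12 (edgeR adjusted p = 0.00982) and SPRED1 by 0.35 ± 0.11 (edgeR adjusted p = 0.0157).

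Some of these calls changed when 1 library was left out, which leaves its group with 1 library and the test with less power. The DUSP6 difference was 0.32 without CAL27 DMSO replicate 1 (edgeR adjusted p = 0.0579) and also 0.32 without CAL27 NEDD8i replicate 1 (edgeR adjusted p = 0.0594). The SPRED1 difference no longer passed without A431 NEDD8i replicate 1, CAL27 DMSO replicate 2 or CAL27 NEDD8i replicate 2. It was then 0.31, 0.33 and 0.30, against 0.35 with all libraries. SPRY2 differed by -0.94, with a 95% interval from -1.71 to -0.18 and an edgeR adjusted p of 0.0544, and passed without A431 DMSO replicate 2, A431 NEDD8i replicate 1 or CAL27 NEDD8i replicate 1 (edgeR adjusted p = 0.0493, 0.0194 and 0.0486). DUSP5 differed by -0.23, interval -0.47 to 0.01, and passed without A431 DMSO replicate 1 or CAL27 DMSO replicate 1 (edgeR adjusted p = 0.0427 and 0.0346). SPRY4 differed by 0.23 (interval -0.22 to 0.68) and SPRED2 by 0.22 (interval -0.09 to 0.53), and neither passed.

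**Figure D3:**
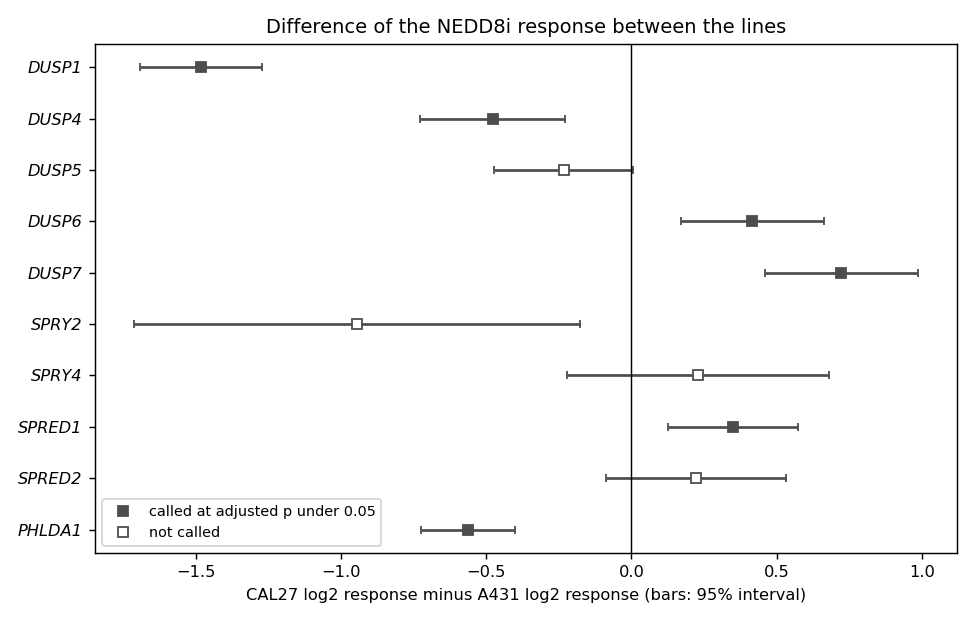
CAL27 log2 response minus A431 log2 response on the horizontal axis for each gene, with 95% intervals and open squares where the test was not passed. DUSP1, DUSP4 and PHLDA1 lie below 0 and DUSP6, DUSP7 and SPRED1 above it, and the interval of SPRY2 is the widest.

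The 2 lines also differed in level. Under DMSO, 6 of the 10 genes were higher in CAL27 than in A431 and 3 were lower, where 58.9% of all genes tested were called, 29.9% higher and 29% lower. SPRY2 was 11.3-fold higher in CAL27 (log2 3.50 ± 0.27, edgeR adjusted p = 4.65e-09), and DUSP1, DUSP4, DUSP5, DUSP6 and DUSP7 were higher by log2 values of 0.90 to 1.14. SPRY4 was lower in CAL27 by a log2 value of -1.54, PHLDA1 by -0.90 and SPRED1 by -0.57. SPRED2 did not pass, at 0.11 (edgeR adjusted p = 0.405).

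Under NEDD8i, 6 were higher in CAL27 and 4 lower, where 62% of all genes tested were called, 30.2% higher and 31.8% lower. This comparison uses the same treated libraries as the responses above. DUSP7 was 3.07-fold higher in CAL27 (log2 1.62 ± 0.09, edgeR adjusted p = 3.60e-11) and DUSP6 2.54-fold (log2 1.34 ± 0.08, edgeR adjusted p = 6.40e-11). DUSP1 lay on the other side, at -0.34 ± 0.07 (edgeR adjusted p = 0.000395), and PHLDA1 at -1.46 ± 0.05 (edgeR adjusted p = 2.28e-13). SPRED1 was at -0.22 (edgeR adjusted p = 0.0162). It no longer passed with DESeq2 size factors (-0.17, adjusted p = 0.0534), upper quartile scaling (-0.10, adjusted p = 0.263), without A431 NEDD8i replicate 2 (-0.16, adjusted p = 0.192) or without CAL27 NEDD8i replicate 1 (-0.17, adjusted p = 0.134). SPRED2, at 0.33 (edgeR adjusted p = 0.00926), did not pass without CAL27 NEDD8i replicate 1 (0.22, edgeR adjusted p = 0.121).

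**Figure D4:**
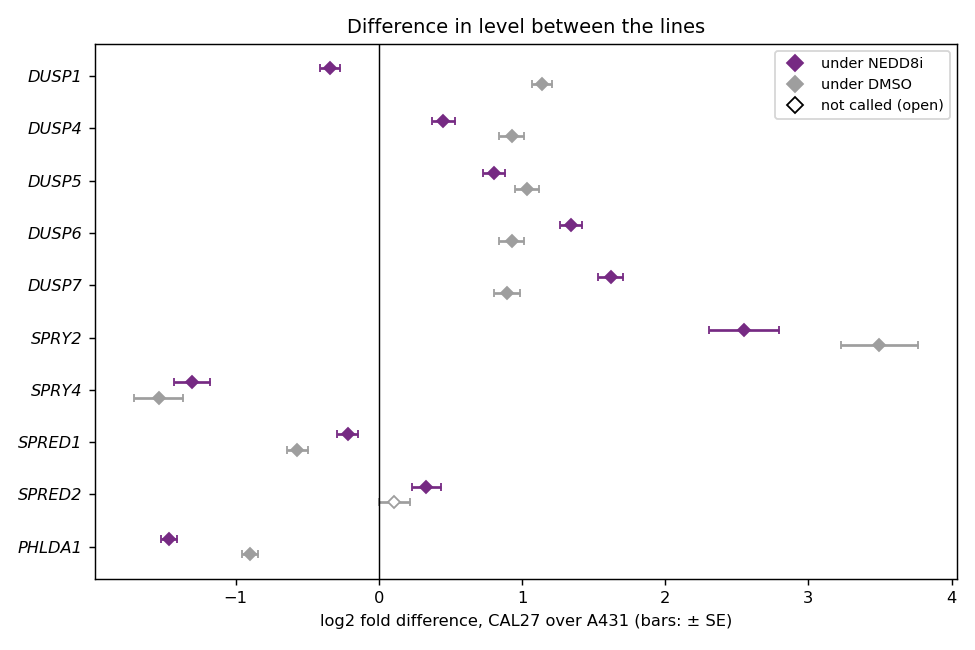
Log2 fold difference of CAL27 over A431 on the horizontal axis for each gene, under NEDD8i in purple and under DMSO in grey, with bars of ± 1 standard error and open diamonds where the test was not passed. DUSP1 is the gene whose points lie on opposite sides of 0, at -0.34 under NEDD8i and 1.14 under DMSO.

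Relatives of these genes moved in both directions. The list holds DUSP2, DUSP8, DUSP9, DUSP10, DUSP16, SPRY1, SPRY3, SPRED3, PHLDA2 and PHLDA3. SPRY3, with at most 9 counts in a group, was not tested. In CAL27, 5 of the 9 tested rose and 3 fell, where 23.2% of all genes tested were higher and 26.4% lower, with a median log2 change of 0.65. DUSP8, a phosphatase of JNK and p38, rose by 2.47 ± 0.36 in CAL27 and had 2 counts in A431 with NEDD8i and 0 with DMSO. DUSP2, an inducible nuclear phosphatase, was at 1.08 and 2.14 CPM in CAL27 with NEDD8i and at 6.43 and 8.10 CPM with DMSO, and fell by 2.17 on the log2 scale. SPRED3 rose by 2.03 ± 0.70 in CAL27.

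In A431, 4 of the 9 relatives rose and DUSP10 fell, where 22.5% of all genes tested were higher and 21.1% lower, with a median of 0.58, or 0.45 over the 8 genes with more than 3 counts in a group and SPRED3 at its bound. SPRED3 had 22 counts in A431 with NEDD8i and 0 with DMSO. Against a floor of 3 counts over the DMSO group it was at least 7.95-fold higher if counts are taken as independent. Mates were counted singly, so a floor in fragments would give a lower bound. SPRY1, a Sprouty family member, had 40 and 76 counts in A431 with NEDD8i and 18 and 14 with DMSO and rose by 1.95 ± 0.35. PHLDA2, related to PHLDA1, stood at 104.6 and 104.8 CPM in CAL27 with NEDD8i and 43.9 and 45.0 CPM with DMSO, and at 104.5 and 104.8 CPM in A431 with NEDD8i and 37.0 and 31.0 CPM with DMSO. It thus rose in both lines, while PHLDA1 rose in A431.

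Genes of the kinase chain itself moved in both directions. Of 19 genes from the adaptor SHC1 to ERK and its substrate kinases, 9 rose and 4 fell in CAL27 (median log2 change 0.14, against -0.04 over all genes), and 10 rose and 2 fell in A431 (median 0.20, against -0.01). Of all genes tested, 23.2% were higher and 26.4% lower in CAL27, and 22.5% higher and 21.1% lower in A431. MAP2K1, which encodes MEK1, rose by 1.27 ± 0.05 in CAL27 and 0.69 ± 0.05 in A431. KSR1, a scaffold of the chain, fell by 2.04 on the log2 scale in CAL27 and by 0.95 in A431. The docking protein gene GAB1 rose by 0.76 ± 0.13 in CAL27 and 0.83 ± 0.12 in A431. MAP2K2, which encodes MEK2, was called in opposite directions, with -0.54 ± 0.07 in CAL27 and 0.47 ± 0.07 in A431, and so was RPS6KA1, an ERK-activated kinase, with -0.18 ± 0.05 and 0.20 ± 0.05. MAPK3, which encodes ERK1, was called in neither line.

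Of 14 other negative regulators of receptors and RAS, 5 rose and 7 fell in CAL27 (median log2 change -0.16, against -0.04 over all genes), and 6 rose and 2 fell in A431 (median 0.08, against -0.01). Of all genes tested, 49.6% were called in CAL27 and 43.6% in A431. ERRFI1, the feedback inhibitor of the EGF receptor, stood at 219.3 and 207.5 CPM in CAL27 with NEDD8i and at 63.7 and 69.1 CPM with DMSO. In A431 it stood at 219.0 and 229.9 CPM with NEDD8i and at 30.5 and 33.3 CPM with DMSO. ERRFI1 thus rose in both lines, as DUSP6 and SPRY4 did. IL17RD, a transmembrane inhibitor of growth factor signalling, fell by 1.57 on the log2 scale in CAL27 and by 1.37 in A431. The ubiquitin ligase gene CBL was at 64.4 and 61.7 CPM in CAL27 with NEDD8i and 30.4 and 32.5 CPM with DMSO, and at 33.0 and 36.1 CPM in A431 with NEDD8i and 21.8 and 25.0 CPM with DMSO, and rose in both lines. UBASH3B, a phosphatase that acts on tyrosine kinases, rose by 0.53 ± 0.08 in CAL27 and 2.61 ± 0.09 in A431, and the tyrosine phosphatase gene PTPN12 by 0.99 ± 0.07 and 1.61 ± 0.07. LRIG3 was called in opposite directions, with -0.25 ± 0.10 in CAL27 and 0.69 ± 0.10 in A431.

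Other transcripts known to respond to ERK moved in both directions. Of 20 tested from a list of 21, 8 rose and 9 fell in CAL27 (median log2 change 0.12), and 13 rose and 6 fell in A431 (median 1.20, or 1.29 over the 19 with more than 3 counts in a group). Of all genes tested, 23.2% were higher and 26.4% lower in CAL27, and 22.5% higher and 21.1% lower in A431. CDC42EP2, with at most 4 counts in a group, was not tested. The ETS factor gene ETV4 was at 45.1 and 41.1 CPM in CAL27 with NEDD8i and 11.2 and 11.1 CPM with DMSO, and at 63.8 and 61.2 CPM in A431 with NEDD8i and 7.25 and 9.12 CPM with DMSO. ETV4 and its relative ETV5 rose in both lines, as did FOSL1 and PLAUR. CCND1, from the same list, fell in both lines, by 1.36 on the log2 scale in CAL27 and by 0.16 in A431. FOSL1, an AP-1 subunit, rose by 3.02 ± 0.09 in CAL27 and 3.22 ± 0.09 in A431, and PLAUR, the urokinase receptor, by 3.10 ± 0.05 and 3.53 ± 0.06.

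FOS and EGR1, which growth factors induce rapidly, fell in both lines. From the same list, IER2 fell by 0.19 on the log2 scale in CAL27 and by 0.33 in A431. IER3 rose by 1.80 in A431 and was not called in CAL27 (log2 change 0.01). FOS, an AP-1 subunit, was at 32.1 and 29.6 CPM in CAL27 with NEDD8i and 577.3 and 588.4 CPM with DMSO, and fell by 4.24 on the log2 scale. In A431 FOS was at 247.5 and 272.1 CPM with NEDD8i and 840.9 and 674.5 CPM with DMSO, and fell by 1.54. EGR1, an early-induced zinc finger factor, fell by 2.34 in CAL27 and by 1.20 in A431. Thus FOS and EGR1 fell in A431 libraries in which DUSP1 rose, and fell in CAL27 libraries in which DUSP1 fell too.

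EPHA4, an ephrin receptor, had 2 counts in CAL27 with NEDD8i and 51 with DMSO, a 24.2-fold lower level under NEDD8i with a counting interval of 6.35 to 205 that takes counts as independent. In A431 EPHA4 fell by 3.80 on the log2 scale. MYC, KLF4 and HMGA2 were called in opposite directions, as DUSP1 was. MYC was at 85.4 and 88.0 CPM in CAL27 with NEDD8i and 211.1 and 234.5 CPM with DMSO, but at 231.9 and 240.6 CPM in A431 with NEDD8i and 89.2 and 79.9 CPM with DMSO. KLF4 had log2 changes of -1.23 in CAL27 and 0.53 in A431, and HMGA2 of -0.66 and 0.43. Of the 20, 2 (EPHA2 and EMP1) had a higher response in CAL27 relative to A431 and 14 a lower one, where 14.2% of all genes tested were called higher and 19.8% lower, with a median difference of -0.60 log2, against -0.04 over all genes tested.

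**Figure D5:**
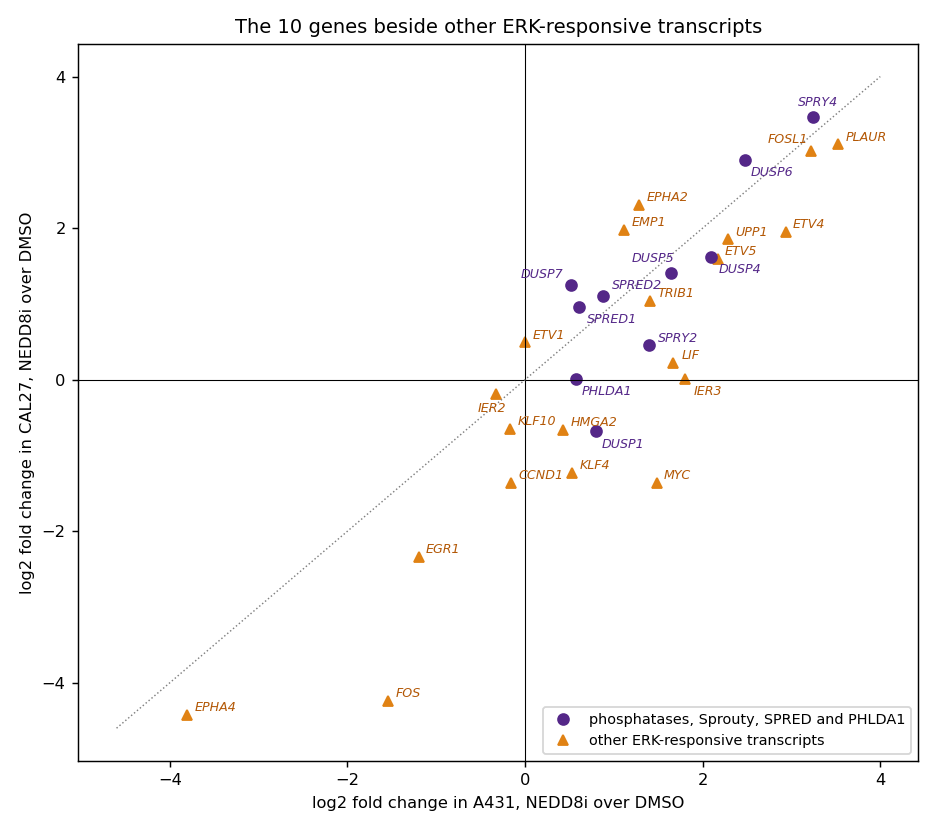
Log2 fold change of NEDD8i over DMSO in CAL27 on the vertical axis and in A431 on the horizontal axis, with circles for the 10 genes and triangles for the 20 other ERK-responsive transcripts tested. The dotted line marks equal change in the lines, and the EPHA4 value in CAL27 rests on 2 counts under NEDD8i. ETV1 had 0 counts in both A431 groups, so its place at 0 on the horizontal axis is no measured change. SPRY4 and DUSP6 lie beside FOSL1 and PLAUR at the top right, FOS, EGR1 and EPHA4 lie at the bottom left, and DUSP1 lies with MYC, KLF4 and HMGA2 in the quadrant that is negative in CAL27 and positive in A431.

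The 10 genes did not share 1 profile over the 8 libraries. Profiles were compared by the root mean square difference of log2 CPM after each gene was centred on its own mean. DUSP4 and DUSP5 were the closest pair, at 0.23, followed by SPRED1 and SPRED2, at 0.34. SPRY2 and SPRY4 were the farthest apart, at 2.54. Among 10323 other genes with a mean of at least 5 CPM, the nearest to DUSP6 were MAFF at 0.22, SEMA7A at 0.24, FOSL1 at 0.30, CD274 at 0.34 and PRDM1 at 0.36, where DUSP6 itself varied by 1.46 around its mean. MAFF averaged 141.1 CPM in CAL27 with NEDD8i and 13.0 CPM with DMSO, and 47.0 CPM in A431 with NEDD8i and 9.06 CPM with DMSO. The nearest to SPRY4 were LURAP1L at 0.36, SLC7A11 and CYP4F11 at 0.41, PEAR1 at 0.43 and SRXN1 at 0.44, where SPRY4 varied by 1.81. These distances are over 8 libraries of 4 groups and are descriptions without a test.

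Promoter sequences were available for 8 of the 10 genes, in 11 windows of 250 bases before and 50 bases after a RefSeq transcript start on GRCh38.p14. DUSP4 and DUSP5 had no entry. Motifs were searched on both strands, namely TGANTCA of AP-1, TGACGTCA of CREB and ATF factors, CCGGAAG of ETS factors, and the CArG box of serum response factor. The 250 bases before the start are shown for DUSP1, which was called in opposite directions in the lines, and for DUSP6 and SPRY4, which rose most in both. They lie at chr5:172771196-172771445, chr12:89352502-89352751 and chr5:142324248-142324497, all on the minus strand and written from 5′ to 3′. The SPRY4 gene of the count tables begins further upstream, at 142325021, than the start used for its window. Capitals mark the 1 match found in them, the TGACGTCA of DUSP1.
DUSP1: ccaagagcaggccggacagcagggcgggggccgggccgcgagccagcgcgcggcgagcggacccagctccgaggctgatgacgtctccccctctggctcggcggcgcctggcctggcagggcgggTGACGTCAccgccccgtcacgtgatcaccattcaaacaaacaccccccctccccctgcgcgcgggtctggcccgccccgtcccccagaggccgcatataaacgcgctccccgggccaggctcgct
DUSP6: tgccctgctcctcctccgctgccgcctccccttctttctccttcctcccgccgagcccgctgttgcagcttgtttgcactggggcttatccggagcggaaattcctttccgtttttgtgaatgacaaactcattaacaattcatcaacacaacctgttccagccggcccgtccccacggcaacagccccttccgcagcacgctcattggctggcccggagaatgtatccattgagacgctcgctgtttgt
SPRY4: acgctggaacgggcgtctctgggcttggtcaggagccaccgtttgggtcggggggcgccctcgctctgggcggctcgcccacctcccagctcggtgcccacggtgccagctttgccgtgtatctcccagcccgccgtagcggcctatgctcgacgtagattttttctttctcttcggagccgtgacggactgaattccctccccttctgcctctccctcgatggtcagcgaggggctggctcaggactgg

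The TGACGTCA of DUSP1 starts 125 bases before the transcript start, at position -125. That motif stood in 1 of the 11 windows and in 1.85% of all 35116 promoter windows of the same length. TGANTCA stood in 1 of the 11 windows, the second of SPRED2, with matches that start at -6 and at 35, and in 7.71% of all windows. The bases before that start, chr2:65366779-65367028, lie inside the SPRED2 gene, which begins further upstream, at 65432599. The first SPRED2 window, at the beginning of the gene, held no match. CCGGAAG and the CArG box stood in 0 of the 11, and in 10.3% and 1.29% of all windows. A match describes letters in a window and does not show that a factor binds there, and the windows leave out more distant elements.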

How the data were processed

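The authors deposited a table of raw counts for each of the 8 libraries. Per the labels' protocols, the kit was QuantSeq FWD, which reads transcripts near the poly(A) tail. The submitters' processing notes list STAR and the build GRCh38. Per the file headers, exons of the basic GENCODE 39 annotation were counted with featureCounts 2.0.8, without strand and with the mates of a pair counted singly. Of gene counts from 1 to 40, 70.2% to 76.7% were even, so the floors and the interval given for EPHA4, which hold counting error and nothing else, are too narrow. A floor of 3 counts is 0.048 to 0.0612 CPM.

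From the deposited counts, edgeR 4.0.16 (R 4.3.3) fitted a mean per group over all 8 libraries after TMM scaling and filterByExpr, with 4 residual and 12.3 prior degrees of freedom, and each contrast had a quasi-likelihood test. Standard errors are the log2 change over the square root of F, and the 95% intervals of log2 changes hold the spread between libraries and use the total degrees of freedom. Centred log2 CPM used a prior count of 2. No libraries were copies, since the chi-square over its degrees of freedom was 6.54 to 14.1 between replicates. The tests were run on simulated counts with the same spread for every gene, a check of the code and not of these data. By rule the text names the 10 genes and, from each list of related genes, up to 3 with the largest called log2 change in each line and those called in opposite directions. DUSP10, ETV1, ETV4, ETV5, CCND1, EGR1, IER2, IER3, MAPK3, SPRY3, CDC42EP2, EPHA2 and EMP1 stand outside that rule and were named after their values were seen. Members, lists and alternatives were chosen with earlier results of these data known. Alternatives were 17 other settings, among them DESeq2 1.42.0.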

Additional observations from a re-analysis of the deposited data

Results flagged for a closer look

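The response to NEDD8i differed between the lines, by a test of the difference itself, for 6 of the 10 genes, where 34% of all genes tested were called. The CAL27 log2 response minus the A431 log2 response was -1.48 for DUSP1, -0.478 for DUSP4, -0.564 for PHLDA1, 0.417 for DUSP6, 0.723 for DUSP7 and 0.35 for SPRED1. The edgeR adjusted p ranged from 4.72e-09 for DUSP1 to 0.0157 for SPRED1. For DUSP1 the direction itself differed, lower in 2 of 2 CAL27 libraries with NEDD8i than in both CAL27 libraries with DMSO, and higher in 2 of 2 A431 libraries with NEDD8i than in both A431 libraries with DMSO. The DUSP6 call was lost without CAL27 DMSO replicate 1 (edgeR adjusted p = 0.0579) or CAL27 NEDD8i replicate 1 (0.0594). The SPRED1 call was lost without A431 NEDD8i replicate 1 (edgeR adjusted p = 0.075), CAL27 DMSO replicate 2 (0.0698) or CAL27 NEDD8i replicate 2 (0.0642). The cause of these differences was not tested.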

How the results depend on the processing

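Over 17 alternatives (other scalings, filters, DESeq2, halved counts, robust spread, the groups compared alone, the replicate number as a block, and each library left out) no count of called genes moved by over 1.5 times, and no gene of the 10 reversed a call. Over all comparisons and alternatives, 823 values for single genes kept their side of the threshold, 11 lost a call and 6 gained one. The report gives these but for 1, the SPRED1 difference of CAL27 over A431 under NEDD8i, which DESeq2 put at -0.17 (adjusted p = 0.0846). With the replicate number as a block, 4260 genes were higher and 4826 lower in CAL27, and 4142 and 3810 in A431. Same-numbered libraries did not deviate together (correlation across genes of -0.00375 in CAL27 and -0.00346 in A431). The labels state no pairing, and a correlation from 2 libraries per group cannot show whether same-numbered libraries were handled together. Upper quartile scaling moved the median of all genes between the lines under NEDD8i to 0.16, against 0.04 with TMM. Low counts limit SPRY2 in A431.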
